A study of Mus musculus with 6 samples.

Results

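The membrane mucins of the corneal surface and the genes that build and bind their sugar coat were followed here in 6 RNA-sequencing libraries of mouse cornea, 3 titled Control and 3 titled Cationorm. The 10 genes were taken by their symbol in the deposited count table, which lists 35673 genes. They are the transmembrane mucins Muc1, Muc4, Muc13, Muc15, Muc16 and Muc20, the galectin Lgals3, and the O-glycan genes Galnt3, C1galt1 and C1galt1c1. All 10 symbols were found, and 9 of the 10 passed the filter on low counts. Muc16 did not. All mice were C57BL/6J males, 6 to 8 weeks of age. The study's dry eye model joined 0.1% benzalkonium chloride, a preservative detergent that irritates the ocular surface, with 6 h of contact lens wear per day, followed by drops of 5 µL for 14 days. Cationorm is an eye drop made of a cationic oil-in-water nanoemulsion. Both groups carry the same disease-model tag and the same genotype and treatment tags in the labels, so whether Control stands for untouched eyes or for an arm of the model cannot be told apart from the labels, and only the titles separate the groups.

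Transmembrane mucins are long proteins whose extracellular part is densely decorated with O-linked sugars. On the ocular surface they form the glycocalyx, the wettable layer that holds the tear film and keeps particles and dyes out of the epithelium. The sugars are started in the Golgi by GalNAc transferases such as Galnt3. C1galt1 adds the galactose that makes the core 1 structure, and it needs the chaperone C1galt1c1, also called Cosmc, to fold. Galectin-3, the product of Lgals3, binds galactose-containing sugars on the mucins and crosslinks them at the apical surface.

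Library depth was 32486043 to 39193311 counts. The 7 markers of corneal epithelium, among them Krt12 and Krt5, summed to 55810 to 62460 CPM (counts scaled to library size) over the libraries, so the labelled tissue was represented. The 5 keratins listed for conjunctival epithelium, the neighbouring tissue that carries goblet cells, were all counted, led by Krt13. They summed to 2870 to 4021 CPM in Control and 3140 to 3403 CPM in Cationorm. The part of conjunctiva in these keratin counts was not tested. Goblet cell markers were near the floor. Of 7 listed, 5 were in the table and 4 of these had a mean under 1 CPM, and Muc5ac, the gel-forming mucin that defines goblet cells, had at most 4 counts in a library. The closest pairs of libraries crossed the groups. Control 3 and Cationorm 3 had the smallest chi-square per degree of freedom of any pair (15.9), followed by Control 3 and Cationorm 2 (21.6). Pairs within a group had 30.02 to 70.7. The labels do not say that replicates came from separate animals, so the spread that the p-values rest on may not be a spread between animals. Where 3 values are given for a group, they stand in the order of libraries 1, 2 and 3.

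No glycocalyx gene passed the test of Cationorm against Control. Of the 9 tested members, 0 passed an adjusted p of 0.05 in the quasi-likelihood test of edgeR, against 0% of the 18804 genes tested. At an unadjusted p under 0.05 there were 0 of 9 members, against 8.73% of all genes (5.16% higher and 3.57% lower in Cationorm), and DESeq2 and limma-voom each called 0 members. The groups overlapped in all 9 tested members, while 14.8% of all tested genes had groups that did not overlap, 8.73% with Cationorm higher and 6.09% with Cationorm lower. The median log2 fold change of the 9 was -0.03, against 0.01 for all tested genes. Among the 5 tested mucins 4 were higher in Cationorm on average, and the median of their log2 fold changes was 0.17. The galectin and the 3 O-glycan genes were lower on average. Over all tested genes, 51.2% had a positive value.

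Ranked per length, the glycocalyx transcripts covered a wide range of levels. Lgals3 was the most abundant, at 1261 to 1578 TPM (counts divided by gene length and scaled to a total that is the same in each library) over the 6 libraries. Muc4 was second at 522 to 668 TPM and Muc20 came next at 155 to 214 TPM. Muc15 (94.96 to 114 TPM) and Galnt3 (101 to 115 TPM) overlapped, and their order turned when the longest transcript was used in place of all exons. Muc1 followed at 42.9 to 68.8 TPM, then C1galt1c1 at 34.5 to 43.9 TPM. The ranges of Muc1 and C1galt1c1 touched, but Muc1 was the higher in every library. Their order held with the longest transcript. C1galt1 was at 6.22 to 11.2 TPM and Muc13 at 0.857 to 1.67 TPM. Of the summed TPM of the 6 mucins, Muc4 made up 60.8 to 64.4%, Muc20 18.4 to 21.1%, Muc15 9.85 to 13.5% and Muc1 4.80 to 6.83%. The lengths came from an annotation of GRCm38, an older build than those the submitters' processing notes name, so these levels are approximate.

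**Figure D1:**
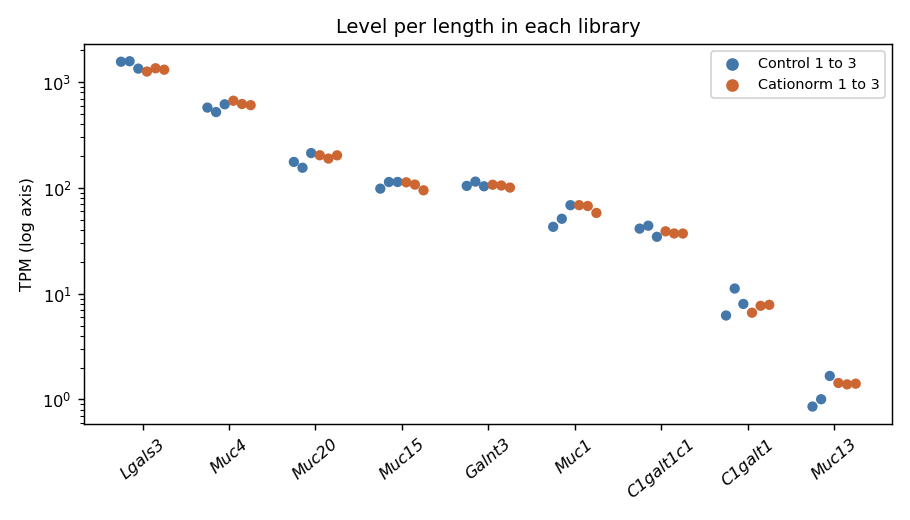
Level per length of the 9 tested glycocalyx genes. Each point is 1 library in TPM on a log axis, blue for Control 1 to 3 and orange for Cationorm 1 to 3 from left to right, and the genes run from Lgals3 (1261 to 1578 TPM) to Muc13 (0.857 to 1.67 TPM), with Muc15 and Galnt3 overlapping.

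Muc16, the largest of the membrane mucins and the carrier of the CA125 epitope, was all but uncounted. It had 0, 4 and 0 counts across the Control libraries and 0, 2 and 4 counts across the Cationorm libraries. These are 10 counts in all, at most 4 in a library. A count of 0 allows up to 3 counts, a floor of 0.0765 CPM at the greatest depth and 0.0923 CPM at the smallest. No fold is given for it, and the filter on low counts removed it before the test. The 3 libraries with a count had an even number. Of all genes with 1 to 10 counts in a library, 63.4 to 66.7% had an even count. The sources used here do not state whether a read pair adds 1 count or more, and if it adds more, the floor is too low. The floors cover counting error only.

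Muc4, a large mucin that acts as a partner of the ErbB2 receptor, had the smallest p among the members. It stood at 2081, 1974 and 2247 CPM across the Control libraries and 2463, 2392 and 2214 CPM across the Cationorm libraries. Cationorm 1 and 2 were above every Control library, whereas Cationorm 3 lay below Control 3. The group means were 2100 ± 137 and 2356 ± 128 CPM (SD, n = 3 each). The fitted ratio was 1.12-fold with a 95% interval of 0.997 to 1.26 (edgeR adjusted p = 0.550), so a difference of more than 1.26-fold lies outside the interval. Its log2 fold change of 0.17 ± 0.07 (SE) ran from 0.10 without Control 2 to 0.22 without Control 3, and it did not pass in any fit that left out 1 library.

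Muc20, a small mucin known to bind the Met receptor, lies next to Muc4. It was at 218, 201 and 266 CPM across the Control libraries and 258, 250 and 254 CPM across the Cationorm libraries. The 3 Cationorm libraries lay close together, between the 2 lower Control libraries and Control 3, the highest of all 6. The means were 229 ± 33.7 and 254 ± 3.87 CPM (SD, n = 3 each), with a log2 fold change of 0.15 ± 0.10 (SE, edgeR adjusted p = 0.608). Without Control 3 the log2 fold change was 0.28, and without Control 2 it was 0.05. Neither passed (edgeR adjusted p = 0.223 and 0.912). In the RefSeq annotation of GRCm38 the spans of Muc4 and Muc20 overlap each other, and the strand setting of the counting is not given in the sources used here, so reads from the shared stretch cannot be assigned to either gene.

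Muc1, a mucin whose cytoplasmic tail takes part in signalling, varied most among the abundant mucins. It was at 30.9, 38.6 and 49.8 CPM across the Control libraries and 50.6, 51.8 and 42.3 CPM across the Cationorm libraries. Control 1 was the lowest library, and Control 3 sat among the Cationorm libraries. The means were 39.8 ± 9.51 and 48.2 ± 5.20 CPM (SD, n = 3 each), and the log2 fold change was 0.28 ± 0.17 (SE, edgeR adjusted p = 0.588). It was 0.47 without Control 3 (adjusted p = 0.256) and 0.13 without Control 1 (adjusted p = 0.870). Its 95% interval ran from 0.915-fold to 1.61-fold.

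Muc13 and Muc15 completed the mucins. Muc13, a mucin best known from the gut, had only 32, 34 and 55 counts across the Control libraries and 43, 52 and 50 counts across the Cationorm libraries. Its levels were 0.800, 0.981 and 1.57 CPM across the Control libraries and 1.36, 1.38 and 1.33 CPM across the Cationorm libraries, and as for Muc20 the Cationorm libraries lay between Control 3 and the other Control libraries. Its log2 fold change of 0.29 had an SE of 0.30 (edgeR adjusted p = 0.735). Muc15 was at 108, 131 and 126 CPM across the Control libraries and 127, 126 and 105 CPM across the Cationorm libraries, with a log2 fold change of -0.03 ± 0.10 (SE, edgeR adjusted p = 0.931). Its highest and lowest values were Control 2 and Cationorm 3, and its direction turned without Control 2 (0.01) or Cationorm 3 (0.05). The span of Muc15 overlaps that of Ano3, a membrane protein gene, which had 25 to 114 counts in a library.

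**Figure D2:**
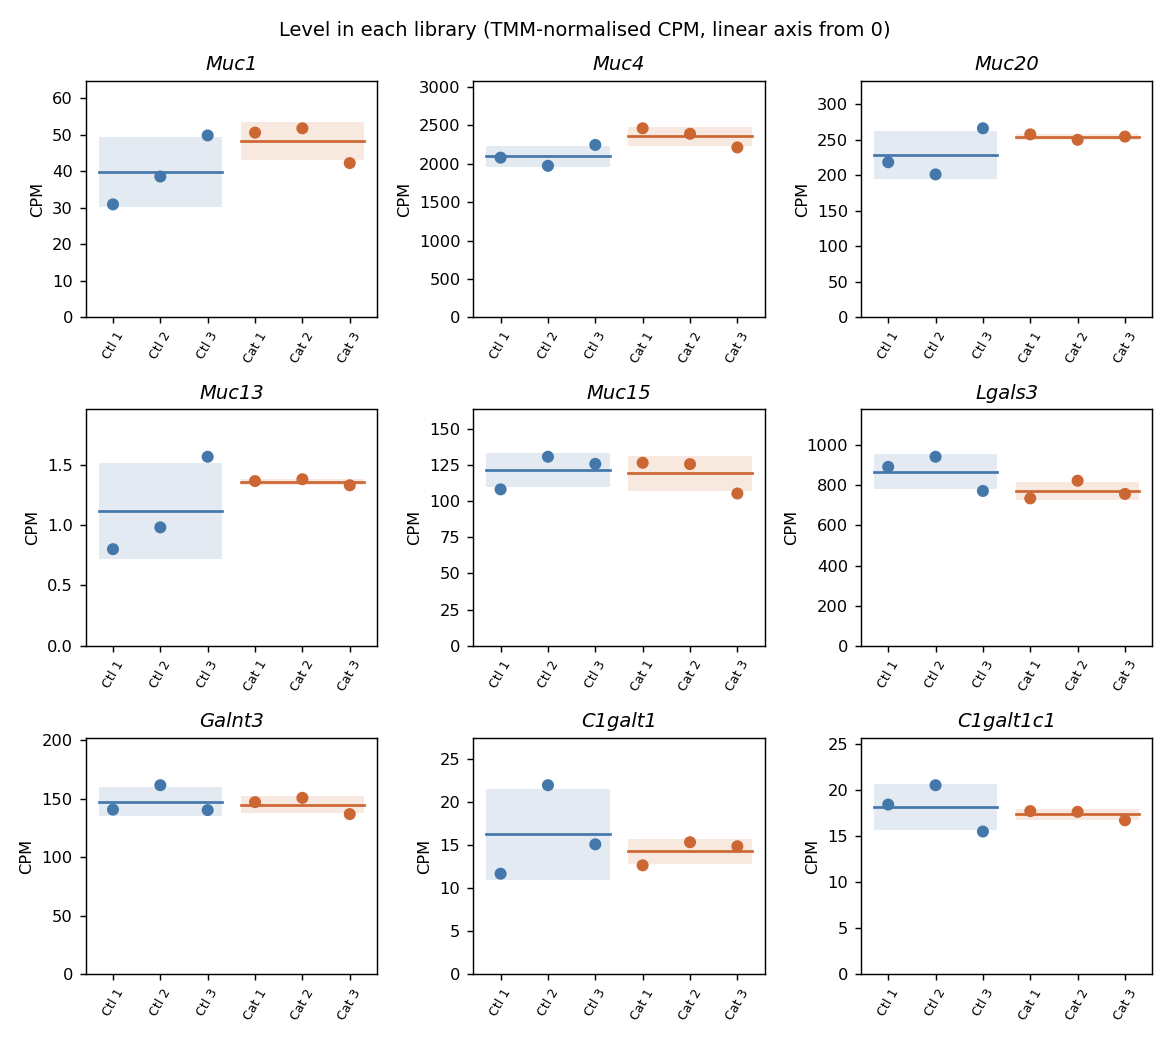
Level of 9 glycocalyx genes in each library, in TMM-normalised CPM on linear axes from 0. Points are libraries (Ctl, Control; Cat, Cationorm), lines are group means and shaded bands are the mean ± SD of 3 libraries, and the groups overlap in every panel, with Control 3 above Control 1 and Control 2 for Muc1, Muc4, Muc13 and Muc20.

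Muc1, Muc4, Muc13 and Muc20 shared their lowest libraries, which were Control 1 and Control 2 for all 4 genes. Relative to each gene's mean over the 6 libraries, in log2 units, Control 1 was at -0.48 for Muc1, -0.59 for Muc13, -0.09 for Muc4 and -0.14 for Muc20. Control 2 was at -0.17, -0.30, -0.17 and -0.26 in the same order of genes. Lgals3 was the reverse, with 0.13 in Control 1 and 0.21 in Control 2, its highest libraries. C1galt1 stood at -0.36 in Control 1 and 0.56 in Control 2, the widest spread after Muc13. These deviations are descriptions of 6 libraries and carry no test.

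**Figure D3:**
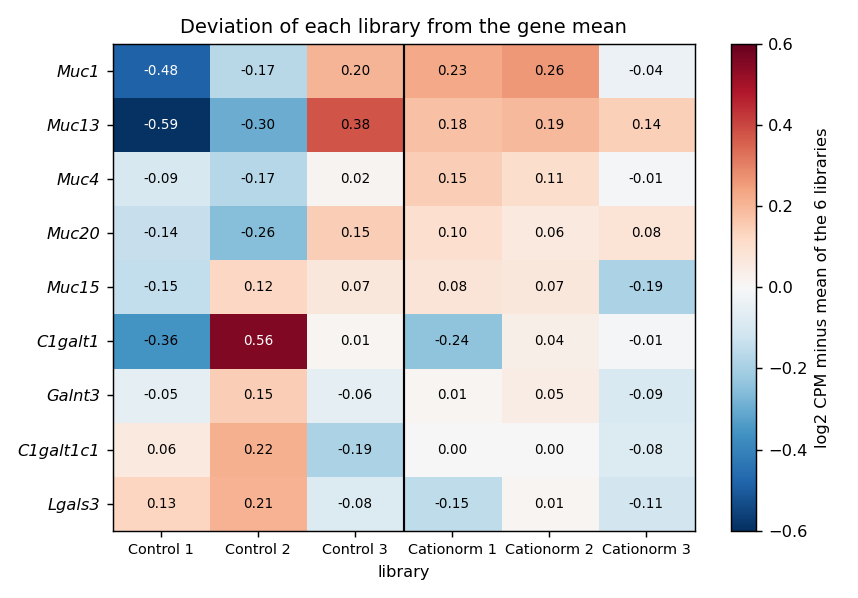
Deviation of each library (columns) from the mean of the gene (rows) over 6 libraries, in log2 CPM, red above and blue below the mean, with Control left and Cationorm right of the line. Control 1 and Control 2 are below the mean for Muc1, Muc13, Muc4 and Muc20 and above it for Lgals3, and C1galt1 is highest in Control 2 (0.56).

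Summed markers of pigment cells and of vascular endothelium also set Control 1 and Control 2 apart, and sums of the other eye tissues did not. The 6 markers of pigment cells and iris summed to 480.3, 414 and 1029 CPM across the Control libraries and 1448, 1173 and 1146 CPM across the Cationorm libraries, and all 6 were higher on average in Cationorm. The 5 vascular endothelial markers summed to 46.9, 47.1 and 75.6 CPM across the Control libraries and 73.9, 74.0 and 68.8 CPM across the Cationorm libraries, all 5 higher on average in Cationorm. The 7 retina markers summed to 6876, 5948 and 4601 CPM across the Control libraries and 2278, 1780 and 5692 CPM across the Cationorm libraries, and 0 of 7 were higher on average in Cationorm. Here Cationorm 1 and Cationorm 2 stood apart as the lowest, and Control 2 lay near Cationorm 3. Lens and muscle markers had other orders again. The 6 lens markers in the table summed to 47.98, 1971 and 1753 CPM across the Control libraries and 1122, 2432 and 4049 CPM across the Cationorm libraries. The 6 skeletal muscle markers summed to 403, 63.6 and 731 CPM across the Control libraries and 42.6, 1266 and 458 CPM across the Cationorm libraries. All 6 lens markers in the table and all 6 muscle markers were also higher on average in Cationorm. Sums of the keratocyte markers (2028 to 3122 CPM) and corneal endothelium markers (569 to 785 CPM) did not set Control 1 and Control 2 apart. All 4 corneal endothelium markers were higher on average in Cationorm. Single keratocyte markers differed from their sum, and 2 of 5 were higher on average in Cationorm. Ptgds was at 252, 248 and 557 CPM across the Control libraries and 828, 698 and 587 CPM across the Cationorm libraries. Its lowest libraries were Control 1 and Control 2. Kera was at 186, 169 and 173 CPM across the Control libraries and 152, 73.5 and 71.6 CPM across the Cationorm libraries. No marker of these lists was at 0 in all libraries. The part of these tissues in the mucin values was not tested. In bulk tissue, fewer cells of a type and less RNA per cell cannot be told apart.

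The stretches before the start sites of Muc1, Muc4 and Muc20, the more abundant of the 4 genes that shared their low libraries, are shown to let them be compared. Each is the 250 bases before the RefSeq start on GRCm38.p6, written 5′ to 3′ on the gene's own strand. Capitals mark CACCC, the box bound by Krüppel-like factors, and TATAAA, the TATA box, on either strand. Muc1 is chr3:89228806-89229055 on the plus strand, Muc4 is chr16:32735636-32735885 on the plus strand and Muc20 is chr16:32797436-32797685 on the minus strand.
Muc1: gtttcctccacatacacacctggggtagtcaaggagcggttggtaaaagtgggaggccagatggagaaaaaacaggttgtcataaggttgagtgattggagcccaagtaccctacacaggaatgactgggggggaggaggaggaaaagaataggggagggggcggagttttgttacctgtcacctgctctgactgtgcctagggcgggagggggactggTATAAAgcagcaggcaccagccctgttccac
Muc4: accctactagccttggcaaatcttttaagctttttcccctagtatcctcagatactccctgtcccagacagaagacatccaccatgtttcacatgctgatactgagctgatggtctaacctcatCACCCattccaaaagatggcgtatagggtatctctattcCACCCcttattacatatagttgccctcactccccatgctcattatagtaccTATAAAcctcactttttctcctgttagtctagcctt
Muc20: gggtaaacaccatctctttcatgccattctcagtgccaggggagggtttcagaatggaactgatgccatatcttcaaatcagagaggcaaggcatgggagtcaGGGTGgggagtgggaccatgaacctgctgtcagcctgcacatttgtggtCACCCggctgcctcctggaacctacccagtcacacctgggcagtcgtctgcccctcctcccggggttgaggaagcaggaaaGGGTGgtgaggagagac

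Muc1 and Muc4 each held 1 TATAAA, which began 31 bases before the start in Muc1 and 36 bases before it in Muc4, and Muc20 held 0. In 12.4% of 32851 RefSeq promoters of the same length at least 1 TATAAA was present. CACCC occurred 2 times in Muc4, 3 times in Muc20 and 0 times in Muc1, against 52% of promoters with at least 1. TGANTCA (AP-1), TTCNNNGAA (STAT) and AACCGGTT (grainyhead), searched on both strands, had 0 matches in the 3 stretches. They occurred in 6.75%, 7.02% and 0.116% of all promoters. These are matches of letters, and no binding was measured.

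Lgals3, the galectin that crosslinks the mucins, had the second smallest p of the members and the opposite direction to Muc4. It was at 893, 943 and 772 CPM across the Control libraries and 735, 824 and 758 CPM across the Cationorm libraries. Control 1 and Control 2 were above every Cationorm library, whereas Control 3 lay below Cationorm 2. The means were 869 ± 87.8 and 772 ± 45.9 CPM (SD, n = 3 each). The fitted ratio was 0.888-fold with a 95% interval of 0.768 to 1.03 (edgeR adjusted p = 0.550). The count of Muc4 over that of Lgals3, in log2 units, was 1.22, 1.07 and 1.54 in Control 1 to 3 and 1.74, 1.54 and 1.55 in Cationorm 1 to 3. Control 1 and 2 were the low libraries for this ratio, and Control 3 was level with Cationorm 2 and 3.

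Galnt3, which starts O-glycans and is also known for protecting the phosphate hormone FGF23, was the steadiest member. It was at 141, 162 and 140.3 CPM across the Control libraries and 147, 151 and 137 CPM across the Cationorm libraries, a highest to lowest ratio of 1.18. Its log2 fold change was -0.03 ± 0.08 (SE, edgeR adjusted p = 0.918), with a 95% interval from 0.864-fold to 1.12-fold. Its sign turned without Control 2 (0.03) or Cationorm 3 (0.01).

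C1galt1, the core 1 synthase, was at 11.7, 21.9 and 15.1 CPM across the Control libraries and 12.6, 15.3 and 14.8 CPM across the Cationorm libraries. Control 2 stood above the other 5 libraries and Control 1 was the lowest. Its log2 fold change was -0.18 ± 0.23 (SE, edgeR adjusted p = 0.776), and it changed sign to 0.08 without Control 2. Its chaperone C1galt1c1 was at 18.4, 20.5 and 15.5 CPM across the Control libraries and 17.7, 17.6 and 16.7 CPM across the Cationorm libraries, with a log2 fold change of -0.06 ± 0.12 (SE, edgeR adjusted p = 0.858) that also changed sign without Control 2, to 0.01. Control 2 was highest for both genes. Control 2 also had the largest sum of the 6 immune cell markers, 140.2 CPM against 87.4 to 113 CPM in the other 5 libraries, and the largest sum of the conjunctival keratins, 4021 CPM. In Control 2 the largest part of the immune sum was Lyz2, at 70.2 CPM against 31.2 to 51.2 CPM in the other 5 libraries. Of the 6 immune markers, Cd68, Itgam and Cd3e were not highest in Control 2, whereas the others were. Of the keratins, Krt7 and Krt8 were not. The part of these cell types in the C1galt1 value was not tested.

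**Figure D4:**
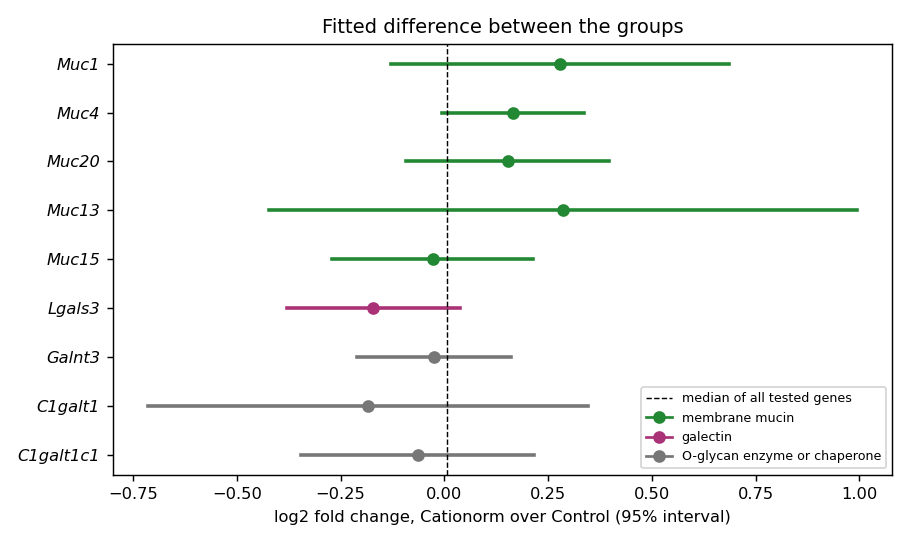
Fitted log2 fold change of Cationorm over Control for 9 glycocalyx genes. Points are edgeR estimates, bars are 95% intervals, and the dashed line is the median of all tested genes (0.01), with 4 of 5 mucins above it and every interval including 0.

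Scaling to epithelium in place of the whole library gave the same signs. Per 1000 counts of the 7 corneal epithelial markers, Lgals3 was at 14.9, 15.8 and 13.8 in Control 1 to 3 and at 12.2, 13.2 and 13.1 in Cationorm 1 to 3. On this scale the groups did not overlap for Lgals3, which was the only such member of 9 compared, against 13.6% of all tested genes (9.8% with Cationorm lower). The exact two-sided permutation p for Lgals3 was 0.1, the smallest that 3 libraries against 3 can give, and 0.6 when adjusted over the 9 members. Its log2 difference was -0.21 with the summed markers and -0.18 with Krt12 alone. Muc4 was at 34.8, 33.0 and 40.3 per 1000 in Control 1 to 3 and at 41.0, 38.3 and 38.3 in Cationorm 1 to 3 (exact permutation p = 0.3, 0.6 adjusted), and the groups overlapped.

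Among the other transmembrane mucins and sialomucins the most abundant by counts was Muc21, an anti-adhesive mucin of stratified epithelia. It was at 666, 647 and 761 CPM across the Control libraries and 855, 795 and 857 CPM across the Cationorm libraries. All 3 Cationorm libraries were above all 3 Control libraries, and the log2 fold change of 0.27 ± 0.08 (SE) did not pass (edgeR adjusted p = 0.550). Of the 11 genes listed, 9 were in the table and 7 were tested. In this list 0 passed and 2 of 7 had groups that did not overlap, both higher in Cationorm, where 8.73% of all tested genes were higher without overlap. The median was 0.18. Over all 9 lists together, 8 of 79 tested genes (10.1%) had groups without overlap, below the 14.8% of all tested genes. Next in level by counts was Cd164, a sialomucin, with a mean of 624 CPM and -0.01 ± 0.08 (log2 fold change ± SE). Parm1 followed with a mean of 85.5 CPM and 0.18 ± 0.11. Podxl2, a sialomucin related to podocalyxin and the other gene without overlap, was chosen after its values were seen. It had 0.52 ± 0.16. Adjusted p ran from 0.550 to 0.959 over the list.

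Enzymes that start, lengthen and cap the sugars also had 0 genes past the threshold. Of 18 other GalNAc transferases 17 were tested and 0 passed, with 11 higher and 6 lower on average and a median log2 fold change of 0.03. The most abundant by counts were Galnt18 (0.03 ± 0.06, SE), Galnt4 (0.07 ± 0.08) and Galnt7 (0.08 ± 0.08). Of 9 tested genes of core branching and extension 0 passed (median -0.02), led by B4galt1, a galactosyltransferase, at -0.02 ± 0.06, and B3gnt3, which extends core 1, at -0.07 ± 0.06. Of 15 tested genes of sialylation and fucosylation 0 passed, with 11 higher on average (median 0.09). Chst4, the only sulfation gene listed, had 0 counts in every library, so sulfation was not tested. St6galnac1, which adds sialic acid to the first GalNAc, led this list at 343, 324 and 388 CPM across the Control libraries and 401, 420 and 381 CPM across the Cationorm libraries, and Control 3 lay above Cationorm 3. Its log2 fold change was 0.19 ± 0.08 (SE, edgeR adjusted p = 0.550). Next by counts was Cmas, which activates sialic acid, at -0.0020 ± 0.07. Groups without overlap were found in 1 gene of each of these 3 lists, 5.88%, 11.1% and 6.67% of their tested genes, against 14.8% of all tested genes. The deposited annotation assigns 31 genes to mucin type O-glycan biosynthesis, among them Galnt3, C1galt1 and C1galt1c1. Of its 30 tested genes 0 passed and 1 (3.33%) had groups without overlap (median 0.03). Galnt13, named after its values were seen, was called only in the fit without Cationorm 3 (edgeR adjusted p = 0.0284), in which 350 of 19170 genes were called, 335 of them lower. It was at 6.25, 6.17 and 4.50 CPM across the Control libraries and 1.52, 1.17 and 4.68 CPM across the Cationorm libraries. The sum of the retina markers, given above, was likewise lowest in Cationorm 1 and Cationorm 2, and its part in the Galnt13 value was not tested.

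Binding partners and regulators likewise had 0 genes past the threshold. Of the 7 tested other galectins and the galectin-binding protein 0 passed (median -0.04), and Lgals3bp, which galectin-3 binds, had the highest count level at -0.04 ± 0.28 (log2 fold change ± SE), followed by Lgals8 at 0.05 ± 0.09. The linkers that tie membrane mucins to cortical actin were all higher on average, 5 of 5, with 0 passing and 0 without overlap (median 0.11). Ezrin (Ezr), the most abundant of them, was at 719, 656 and 707 CPM across the Control libraries and 761, 801 and 684 CPM across the Cationorm libraries, so its groups overlapped. Radixin (Rdx), its relative, had a log2 fold change of 0.07 ± 0.08 (SE). Of 6 tested proteases and sialidases that can cut or trim the glycocalyx 0 passed (median 0.02). In this list 3 had groups without overlap, all higher in Cationorm, against 8.73% of all tested genes, and this list had the highest such share of the 9. They were Mmp14, Adam17 and Neu3, with an unadjusted edgeR p of 0.0268, 0.195 and 0.161. Neu3, a sialidase, had a log2 fold change of 0.15 ± 0.10 (SE). Mmp14, a membrane-bound metalloprotease, was at 191, 180.1 and 218 CPM across the Control libraries and 224, 248 and 225 CPM across the Cationorm libraries (0.24 ± 0.09, SE, edgeR adjusted p = 0.550), and the sheddases Adam10 and Adam17 had -0.03 ± 0.09 and 0.08 ± 0.06. Of 8 epithelial transcription factors 0 passed and 0 were without overlap (median 0.03), with Klf4, which is needed for a normal ocular surface, at 0.03 ± 0.07 and Pax6, the master regulator of eye development, at -0.05 ± 0.06. Secreted mucins and goblet genes had 5 tested of 12 listed, and 0 passed (median -0.36). Fcgbp, a mucus-associated protein, led them at 0.07 ± 0.10, followed by Agr2, a chaperone of mucin folding, at -0.41 ± 0.35, and Muc5b and Muc6 had at most 2 counts in a library. In each of these lists DESeq2 and limma-voom also called 0 genes, and of the 79 genes tested over the 9 lists 3 were higher and 2 lower in Cationorm at an unadjusted p under 0.05, where 5.16% of all tested genes were higher and 3.57% lower.

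Of the members above 5 CPM, Muc1 and C1galt1 differed by at least 1.5 times between their highest and lowest libraries, and the genes with the most similar profile were sought for these. The measure was the root mean square difference of log2 CPM over the 6 libraries after centring each gene, among 12056 other genes of at least 5 CPM. The nearest to Muc1 were Ackr3, a scavenging chemokine receptor (0.042), Rhoc, a small GTPase (0.056), and the pseudogene Cd63-ps (0.061). Ackr3 was at 21.9, 26.4 and 34.1 CPM across the Control libraries and 37.4, 35.8 and 30.6 CPM across the Cationorm libraries, the same low Control 1 as Muc1. The nearest to C1galt1 were Xlr4b (0.096), the MHC class II gene H2-Ab1 (0.097) and Ly6c1, a surface protein of endothelial and myeloid cells (0.112). H2-Ab1 was at 10.6, 19.1 and 12.4 CPM across the Control libraries and 11.6, 11.5 and 12.7 CPM across the Cationorm libraries, with its highest value in Control 2. The genes were picked for this likeness out of all candidates, so it is a description of these 6 libraries with no test.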

How the data were processed

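Corneal RNA was isolated with TRIzol and sequenced as mRNA-enriched TruSeq libraries, per the labels' protocols. The deposited table holds raw read counts per gene symbol, 1 column per library, per the file headers. DESeq2 and the builds GRCm39 and mm39 are listed in the submitters' processing notes. Not given in the sources used here are the aligner, the counter, the annotation and the strandedness. Columns were matched to samples by library name, and groups were taken from the titles.

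Counts were filtered with filterByExpr (18804 of 35673 genes kept), normalised by TMM and tested by quasi-likelihood in edgeR 4.0.16 (R 4.3.3) without covariates. P-values were adjusted over all genes by Benjamini-Hochberg, with a threshold of 0.05. SEs were derived from the log2 fold change and F. CPM are TMM-normalised. TPM used exon lengths of GENCODE for GRCm38, matched by symbol for 32256 genes, chosen after seeing the data because the table gives no length. Promoters are from RefSeq on GRCm38.p6. They were matched for 8 of the 10 members. Named genes are all members, the 2 to 4 most abundant genes of each list, and the 3 genes of most similar profile. Podxl2, Galnt13, Fut4, St3gal6, Muc5b, Muc6, Chst4, Neu3, Ptgds and Kera fall outside this rule and were chosen after their values were seen. The same holds for Lyz2, Cd68, Itgam, Cd3e, Krt7 and Krt8. The members and lists were chosen with earlier results of these data known. Tried as alternatives were size factors of DESeq2, upper-quartile scaling, dropping the filter or tightening it (1 CPM in 3 libraries and 50 counts), the tests of DESeq2 1.42.0 and limma-voom (limma 3.58.1), the replicate number as a block, epithelial markers as library size, Krt12 alone, and leaving out each library. The procedure was also run on simulated counts in which genes varied independently, so shared shifts of tissue content between libraries were not covered.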

Additional observations from a re-analysis of the deposited data

How the results depend on the processing

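Over all genes edgeR called 0 genes, and DESeq2, which adjusted p over 16706 genes after its own filter on mean count, called 64. Leaving out 1 library gave 0 to 350 called genes, with 350 without Cationorm 3, 8 without Control 3 and 1 without Control 2. Size factors, upper-quartile factors, both filters and limma-voom gave 0. The replicate block also gave 0 called genes and 879 genes at an unadjusted p under 0.05, against 1641 without it. Same-numbered libraries did not deviate together (r = -0.197, -0.353 and -0.221 across genes for numbers 1 to 3), so the numbers are not taken to pair the libraries.

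No member passed in any of these fits, and the smallest adjusted p of a member was 0.2226, for Muc20 without Control 3. Muc1, Muc4, Muc13 and Muc20 stayed positive and Lgals3 negative in every fit run. Without Control 2 the log2 fold change turned to 0.007598 for Muc15, 0.02597 for Galnt3, 0.07794 for C1galt1 and 0.01372 for C1galt1c1, and without Cationorm 3 to 0.05298 for Muc15 and 0.01382 for Galnt3. Leaving out 1 library otherwise gave values down to -0.1054 for Muc15, -0.07104 for Galnt3, -0.3739 for C1galt1 and -0.1659 for C1galt1c1. The cause was not tested. Muc4 had an unadjusted p under 0.05 with no filter, with limma-voom and without Control 3 or Cationorm 3, and Lgals3 with epithelial scaling and without Control 3. Muc1 and Muc20 also had one without Control 3, a fit in which 2872 of 19337 genes (14.9%) did. At 3 libraries per group the 95% interval of Muc13, at about 1 CPM, ran from 0.746-fold to 1.99-fold.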

Other observations

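The 6 membrane mucins together summed to 2439, 2346 and 2690 CPM across the Control libraries and 2899, 2821 and 2617 CPM across the Cationorm libraries. Control 3 lay above Cationorm 3. The log2 ratio of C1galt1 to C1galt1c1 counts was -0.66, 0.10 and -0.04 in Control 1 to 3 and -0.48, -0.20 and -0.17 in Cationorm 1 to 3, so the enzyme and its chaperone were not in a fixed ratio across libraries. Fut4, a fucosyltransferase, was at 23.6, 22.8 and 9.46 CPM across the Control libraries and 9.58, 11.5 and 14.3 CPM across the Cationorm libraries. St3gal6, a sialyltransferase, was at 5.65, 5.34 and 11.7 CPM across the Control libraries and 10.5, 12.9 and 10.9 CPM across the Cationorm libraries. For Fut4 and St3gal6, Control 1 and Control 2 lay close together and apart from the other 4 libraries. Fut4 and St3gal6 did not pass (edgeR adjusted p = 0.550 for each) and were chosen after their values were seen.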
